A study of Mus musculus with 28 samples.

Results

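The transcriptomes of liver tumors and of the non-tumor liver beside them were compared in 4 mice whose hepatocytes had been deleted for the interleukin-17 receptor gene Il17ra and which had been fed alcohol. The members are every library of this genotype and diet in the series, 4 from tumors and 4 from non-tumor liver, which makes 8 of 28 libraries. Each tumor library was matched to the non-tumor library that carries the same animal number, and the animals are named dHEP, for the hepatocyte deletion, with their number (dHEP-518 and dHEP-520, then dHEP-549 and dHEP-550). All were C57BL/6 mice with floxed Il17ra alleles and an albumin-promoter Cre, a transgene that is active in hepatocytes, so other liver cells still hold the gene. They received the liver carcinogen diethylnitrosamine at 25 mg/kg when 2 weeks old and the alcohol diet for 18 weeks. One label calls the diet high-fat with alcohol and a protocol describes an isocaloric liquid ethanol diet. Floxed mice without Cre on the same diet (FF, 4 animals) and Cre-deleted mice on chow (3 animals) served for the comparison of tumor effects. All had received the same carcinogen, and no liver without it was used. The labels give neither the sex of the animals nor whether a tumor library came from a single nodule.

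Interleukin-17A signals through a receptor of IL17RA and IL17RC and the adaptor ACT1, and in many cells it raises the transcripts of chemokines and of antimicrobial and acute phase proteins. In liver the receptor is present on hepatocytes, on stellate cells and on macrophages. Hepatocytes divide the work of the liver by zone, with urea synthesis and amino acid breakdown toward the portal vein and drug oxidation and glutamine synthesis around the central vein. Diethylnitrosamine is converted by cytochrome P450 enzymes of hepatocytes into a DNA-alkylating agent, and tumors initiated this way in infant mice commonly carry activating mutations of the Ras and Raf pathway.

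Values are CPM, read counts scaled so that each library sums to 1000000, and are listed by rising animal number, from dHEP-518 to dHEP-550. Differences are tumor minus non-tumor on the log2(CPM + 1) scale, given with the standard error of a paired limma fit with n = 4 animals. A gene is said to have risen or fallen where its Benjamini-Hochberg adjusted p was under 0.05. This scale understates the change of genes near 1 CPM. The labels tie the libraries to animals only through the number in their titles. The fit draws the variance of each gene toward a trend over genes of like level. Standard errors and p-values thus reflect that trend besides the spread between these animals.

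The targeted gene Il17ra, which encodes the receptor chain, was at 13.0, 11.2, 9.23 and 11.5 CPM in non-tumor liver and at 15.5, 28.2, 8.38 and 10.7 CPM in tumors. The tumor values of dHEP-518 and dHEP-520 were above every non-tumor value, and those of the other two animals were not. The difference was 0.32 ± 0.26 and did not pass the test (adjusted p = 0.45). Non-tumor liver of FF mice on alcohol held 17.6 to 31.0 CPM, above all 4 non-tumor libraries of the deleted mice, and FF tumors held 20.9 to 33.9 CPM. The values count the whole gene, do not resolve the floxed exons and cannot be assigned to deleted or to other cells. Hepatocyte markers were present in every library, and 0 of the 13 tested members of that marker list passed the limma test (3 at an unadjusted p under 0.05). Albumin (Alb) was at 55917, 40829, 37317 and 24253 CPM in non-tumor liver and at 144457, 89777, 99665 and 89294 CPM in tumors, higher in every tumor, with a difference of 1.45 ± 0.98 (adjusted p = 0.37, and 0.012 in a fit with no mean-variance trend). Whether Alb passed thus depended on that trend.

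The 8 libraries held an estimated 12080000 to 15040000 reads, and 11894 to 12906 genes reached 1 CPM. On the first principal component, with 50.6% of the variance, non-tumor libraries lay between -40.7 and -36.6 and tumors at 48.9, 35.7, 13.2 and 54.9. The second component, with 22%, placed the tumor of dHEP-550 at 54.4 and those of dHEP-518 and dHEP-520 at -22.2 and -44.6. Tumor dHEP-550 therefore stood apart from the others, and tumor dHEP-549 lay closest to non-tumor liver.

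Of 12534 genes tested, 1601 (12.8%) changed, 991 of them higher (7.91%) and 610 lower (4.87%) in tumors. In 1597 of the 1601 genes the 4 animals moved in the same direction, and in 1413 the tumor and non-tumor values did not overlap. The calls rest on these same 4 differences, so a shared direction among called genes is largely set by the test. Over all tested genes, every tumor lay above every non-tumor library in 14.2% and below in 7.74%. The count depends on each animal. Without dHEP-518 no gene passed the limma test (3137 at an unadjusted p under 0.05), and without dHEP-520, dHEP-549 or dHEP-550 the counts were 430, 816 and 1988. Of the 142 called genes among those chosen by name, none kept its call without dHEP-518, 82 did without dHEP-520, 113 without dHEP-549 and 140 without dHEP-550. Counts of list members without each animal are given below in that order, and the first is 0 for every list. Scaling by median of ratios gave 874 higher and 963 lower genes in place of 991 and 610, a share of higher calls of 47.6% against 61.9%.

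Single animals differed in how many genes moved. Differences over 1 on the log2 scale were counted in 891 genes higher (7.11%) and 1253 lower (10%) in dHEP-518, and in 1551 higher (12.4%) and 451 lower (3.6%) in dHEP-520. The corresponding counts were 524 (4.18%) and 456 (3.64%) in dHEP-549 and 1090 (8.7%) and 1140 (9.1%) in dHEP-550. Across genes, which are not independent of each other, the differences of dHEP-518 and dHEP-520 correlated at r = 0.80, and those of dHEP-520 and dHEP-550 at r = 0.43, the lowest of the 6 pairs.

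By the mean difference on the log2(CPM + 1) scale, the largest rise among called genes was that of Gldn (gliomedin, a protein of the nodes of Ranvier, chr9:54286486-54341786 in GRCm38). Its level was 2.69, 2.04, 5.15 and 2.53 CPM in non-tumor liver and 100.3, 129, 107 and 153 CPM in tumors. Every tumor lay far above every non-tumor library, a ratio of mean CPM of 39.5 and a difference of 4.95 ± 0.24 (adjusted p = 0.0019). Igdcc4, which encodes an immunoglobulin superfamily membrane protein, was under 1 CPM in all 4 non-tumor libraries and at 83.1, 46.8, 13.8 and 60.9 CPM in tumors (4.83 ± 0.37, adjusted p = 0.0032). Cyp2a4, a steroid 15-alpha-hydroxylase of female-type mouse liver at chr7:26307169-26315088, went from 108, 32.4, 180.5 and 119 CPM to 3286, 1244, 2045 and 4358 CPM (4.70 ± 0.31, adjusted p = 0.0032). Reads of Cyp2a4 are hard to tell from those of its near copy Cyp2a5, which was called in neither direction (−0.67 ± 0.47).

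Ccnd1, the cyclin D1 gene at chr7:144929931-144939925 that drives cells through G1, was among the most even changes. It measured 20.9, 18.4, 23.6 and 20.7 CPM in non-tumor liver and 189, 247, 184 and 261 CPM in tumors. The 4 animals lay close together within each tissue, and the rise was 3.33 ± 0.17 (adjusted p = 0.0019), a ratio of means of 10.5. The tetraspanin gene Cd63 rose in every animal too, from 3.10 to 5.88 CPM to 40.5 to 84.2 CPM (3.61 ± 0.26), and so did the glutamate receptor gene Gria3, from 0.475 to 0.922 CPM to 13.7 to 47.9 CPM (3.83 ± 0.32).

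**Figure D1:**
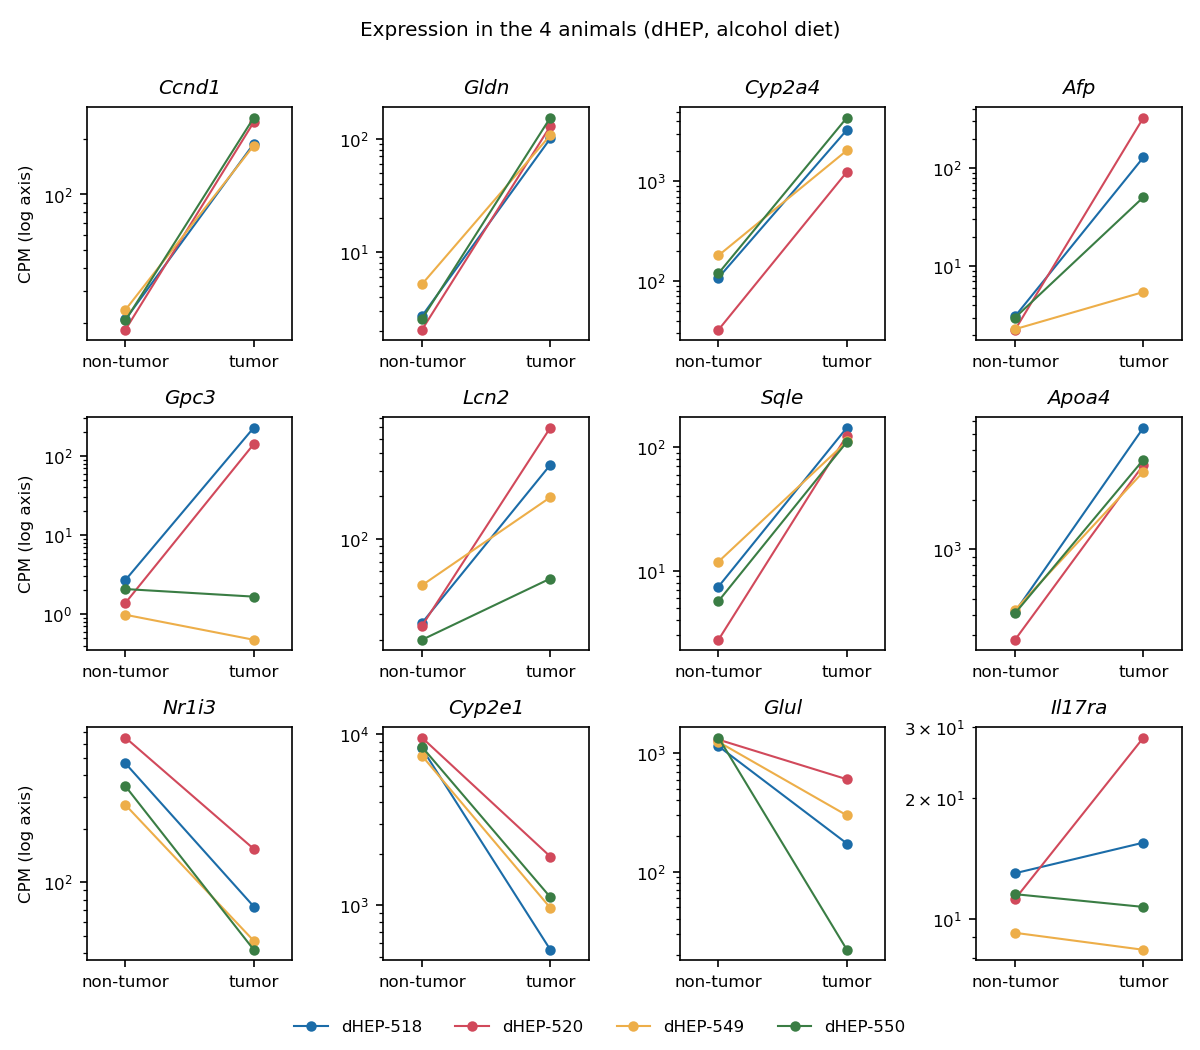
CPM on a log axis in non-tumor liver and tumor for 12 genes, with 1 line per animal. Ccnd1, Gldn, Cyp2a4, Sqle and Apoa4 rise and Nr1i3 and Cyp2e1 fall in all 4 animals with separate groups, Gpc3 rises only in dHEP-518 and dHEP-520, and Il17ra does not separate the tissues.

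Cholesterol synthesis was the pathway with the highest share of rises among gene lists with at least 5 tested members. Hepatocytes build cholesterol from acetyl-CoA through mevalonate, and the genes of the pathway are transcribed under the sterol-sensing factor SREBP2 together with NF-Y, a factor that binds CCAAT boxes. Of 19 tested members 18 rose and none fell, against 7.91% higher among all tested genes, with a median difference of 2.12 beside 0.08 over all tested genes. The median within each animal was 1.56, 2.08, 1.54 and 2.77. Without dHEP-518, dHEP-520, dHEP-549 or dHEP-550 the fit called 0, 13, 16 and 18 members higher.

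The enzymes moved along the whole chain. Sqle, the squalene epoxidase at chr15:59315077-59331192, rose from 7.44, 2.76, 11.8 and 5.68 CPM to 144.01, 124, 111 and 110.4 CPM (4.09 ± 0.29, adjusted p = 0.0032). The 4 tumors lay within a narrow band and each was above all non-tumor libraries. Upstream of it, Mvk, Pmvk and Mvd of the mevalonate arm rose by 1.81, 1.34 and 2.19, the farnesyl diphosphate synthase Fdps by 2.62 and the squalene synthase Fdft1 by 1.32. The late sterol enzymes Lss, Cyp51, Nsdhl, Msmo1 and Dhcr7 rose by 2.06 to 2.52.

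Srebf2, which encodes the factor SREBP2 itself, rose in every animal, from 17.3 to 19.9 CPM to 24.0 to 42.5 CPM (0.87 ± 0.18).

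**Figure D2:**
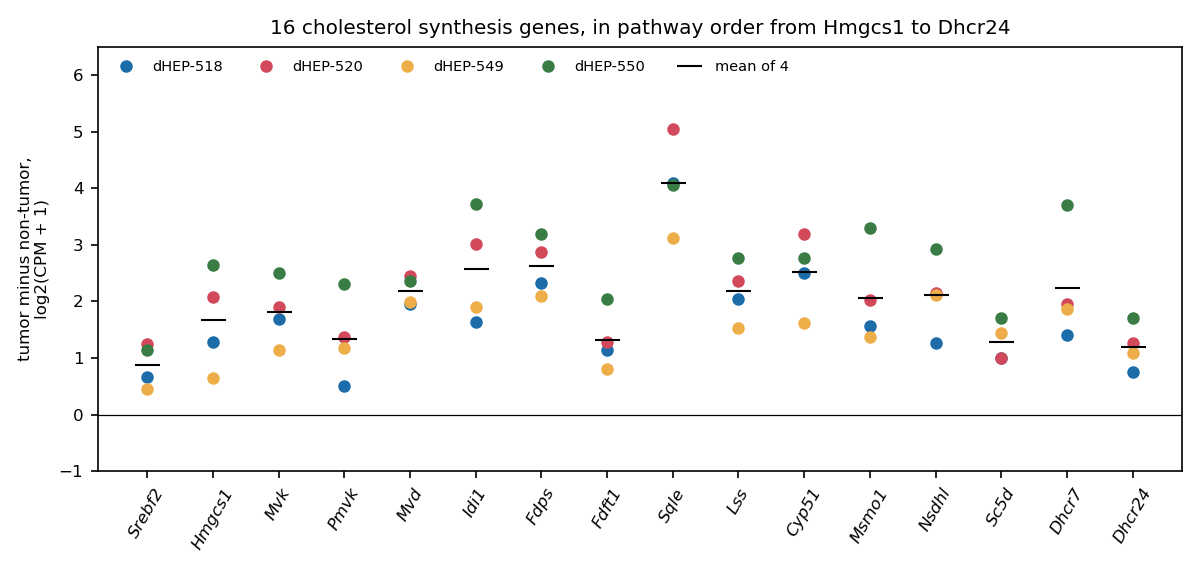
Tumor minus non-tumor difference on the log2(CPM + 1) scale for 16 of the 19 cholesterol genes, with 1 point per animal and a bar at the mean. Sqle has the highest mean of the genes shown (4.09), and all 4 animals lie above 0 for each of the 16.

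Promoter sequence was read for the members that moved together. RefSeq promoters on GRCm38.p6 were matched for 12 of the 19 cholesterol genes, and the 250 bases before the start were searched on both strands. CCAAT (or ATTGG on the printed strand) was in 12 of 12 (100%), against 37.5% of all 27025 genes with a promoter sequence, tested here or not. A gene counted if any of its promoters held a match. A sterol response element, searched as TCACNCCAC, was in 1 of 12 (8.33%) against 1.22%. A match of letters describes the window and is not a measured binding site. The 150 bases before the start are printed 5′ to 3′ on the strand of the gene for 4 members along the pathway, HMG-CoA synthase, isopentenyl diphosphate isomerase, lanosterol demethylase and lanosterol synthase, with the matches in capitals.
Hmgcs1: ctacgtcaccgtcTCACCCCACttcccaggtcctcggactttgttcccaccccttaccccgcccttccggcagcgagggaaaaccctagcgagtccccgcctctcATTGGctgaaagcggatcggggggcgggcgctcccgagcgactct
Idi1: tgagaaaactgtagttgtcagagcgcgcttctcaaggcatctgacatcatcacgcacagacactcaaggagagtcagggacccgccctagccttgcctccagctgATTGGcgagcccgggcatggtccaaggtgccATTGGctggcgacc
Cyp51: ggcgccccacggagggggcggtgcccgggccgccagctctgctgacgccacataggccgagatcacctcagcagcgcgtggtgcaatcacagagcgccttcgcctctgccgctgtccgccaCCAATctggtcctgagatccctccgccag
Lss: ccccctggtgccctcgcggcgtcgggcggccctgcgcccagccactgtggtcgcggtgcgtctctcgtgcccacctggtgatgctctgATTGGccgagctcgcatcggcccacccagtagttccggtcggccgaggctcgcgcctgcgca
The windows are chr13:119690201-119690350, plus strand for Hmgcs1, chr13:8885456-8885605, plus strand for Idi1, chr5:4104698-4104847, minus strand for Cyp51 and chr10:76531455-76531604, plus strand for Lss. Hmgcs1 holds TCACCCCAC 137 bases and ATTGG 45 bases before the start. Idi1 holds ATTGG 45 and 14 bases before it, Cyp51 CCAAT 29 bases and Lss ATTGG 62 bases before it. Hmgcs1 rose from 95.8, 73.1, 62.4 and 74.3 CPM to 234, 313, 98.2 and 473 CPM (1.67 ± 0.32), with the tumor of dHEP-549 only just above the highest non-tumor library. Idi1 rose from 8.60 to 16.9 CPM to 55.0 to 197 CPM (2.57 ± 0.34).

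Genes of mitosis rose nearly as uniformly. These encode the kinases, cyclins and motors that condense and part the chromosomes, and many are switched on late in the cell cycle through CHR elements, searched as TTTGAA, and CCAAT boxes. Of 20 tested members 18 rose and none fell, with a median of 2.14 and medians within the animals of 1.91, 1.68, 1.32 and 3.59. Aurka (1.42 ± 0.40) and Birc5 (1.55 ± 0.41) did not pass. Leaving out each animal in turn gave 0, 8, 16 and 20 members higher.

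Mki67, the proliferation marker Ki-67, was at 13.0, 10.1, 4.98 and 8.14 CPM in non-tumor liver and at 67.8, 51.2, 31.5 and 213 CPM in tumors (2.88 ± 0.39, adjusted p = 0.011). All tumors lay above non-tumor liver and dHEP-550 stood highest by far. dHEP-550 was also highest for Cdk1, the mitotic kinase, at 0.582 to 1.997 CPM in non-tumor liver and 7.61, 6.18, 4.66 and 38.2 CPM in tumors (2.20 ± 0.39), and for its partner cyclin B1 (Ccnb1), at 0.0768 to 0.713 CPM and 8.77, 4.03, 4.47 and 36.4 CPM (2.87 ± 0.54). Top2a, a topoisomerase of dividing cells, rose by 2.74 ± 0.38.

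Among the 16 of 20 mitosis genes with a matched promoter, CCAAT was in 14 (87.5% against 37.5% of all genes with a promoter sequence) and TTTGAA in 7 (43.8% against 18.3%). Cyclin B2 (Ccnb2, 2.35 ± 0.32) and the anaphase activator Cdc20 (2.43 ± 0.44) are printed in the same way because they carry several matches.
Ccnb2: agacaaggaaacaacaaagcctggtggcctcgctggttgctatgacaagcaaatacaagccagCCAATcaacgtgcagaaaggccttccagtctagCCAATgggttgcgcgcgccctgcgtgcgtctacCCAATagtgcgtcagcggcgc
Cdc20: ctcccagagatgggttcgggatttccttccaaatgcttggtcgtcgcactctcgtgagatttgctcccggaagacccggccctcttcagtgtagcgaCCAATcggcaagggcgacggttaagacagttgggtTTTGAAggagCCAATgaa
Ccnb2 (chr9:70421555-70421704, minus strand) holds CCAAT 87, 54 and 21 bases before the start. Cdc20 (chr4:118437344-118437493, minus strand) holds CCAAT 53 and 8 bases and TTTGAA 18 bases before it, and no matches of different motifs overlap in the printed windows.

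Earlier steps of the cell cycle moved in part. In DNA replication and G1/S entry 7 of 17 members rose and none fell (median 0.94, and 0, 1, 5 and 8 higher without each animal), 5 of them subunits of the MCM helicase or its loader, with Mcm5 at 2.09 ± 0.33 and the loader Cdc6 at 1.49 ± 0.26. Cyclin E1 (Ccne1) rose by 1.98 ± 0.23. The thymidine kinase gene Tk1 stood at −0.64 ± 0.25 (adjusted p = 0.13). Of 9 D-type cyclins, their kinases and their inhibitors only Ccnd1 and the inhibitor Cdkn2c (1.20 ± 0.25) passed, whereas Ccnd2 and Ccnd3 stood at 0.26 and 0.08. The p53 target and CDK inhibitor Cdkn1a stood at 1.63 ± 0.48 (adjusted p = 0.071).

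Genes induced by the MAPK cascade were higher in part. Of 10 tested members 5 rose and none fell, with a median of 0.89 and animal medians of 1.14, 1.69, 0.41 and 0.61. The numbers higher without each animal were 0, 1, 5 and 7, so 1 of the 10 was called higher without dHEP-520. The immediate-early factor Egr1 was at 9.66, 4.80, 3.60 and 2.92 CPM in non-tumor liver and 63.8, 114, 29.2 and 39.0 CPM in tumors (3.24 ± 0.29, adjusted p = 0.0046). Tumors lay above non-tumor liver throughout. The ERK phosphatases Dusp5, Dusp4 and Dusp6 rose by 3.01, 2.08 and 1.57 and the Ras-pathway inhibitor Spred1 by 0.84. Among 15 p53 targets 4 rose and none fell (median 0.73, 0, 1, 1 and 5 higher without each animal), the death receptor gene Tnfrsf10b by 2.28 ± 0.39, Phlda3 by 1.89, Casp2 by 0.77 and Aen by 0.73.

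Fetal liver and liver tumor markers divided the animals. Of 18 tested members 9 rose and none fell, with a median of 2.80, but the animal medians were 3.25, 3.53, 0.26 and 1.64, and 0, 3, 10 and 11 rose without each animal. Afp, alpha-fetoprotein of fetal liver, was at 3.09, 2.25, 2.29 and 2.995 CPM in non-tumor liver and 129, 326, 5.47 and 50.6 CPM in tumors (4.08 ± 0.81, adjusted p = 0.026). Every tumor was higher, and dHEP-549 by little. Gpc3, the oncofetal glypican-3, was at 2.69, 1.38, 0.980 and 2.07 CPM and 229, 142, 0.473 and 1.66 CPM (2.81 ± 1.21, adjusted p = 0.17). It was high in the tumors of dHEP-518 and dHEP-520 and within the non-tumor range or under it in the other two.

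Further markers also varied between the animals. The surface protein gene Ly6d was at 4.83, 2.47, 3.02 and 8.99 CPM and 159.5, 529, 3.24 and 187 CPM (4.09 ± 1.0, adjusted p = 0.044), with the tumor of dHEP-549 inside the non-tumor range. Scd2, a fatty acid desaturase of fetal liver, was at 11.6 to 21.3 CPM in non-tumor liver and 289, 361, 36.3 and 562 CPM in tumors (3.68 ± 0.60), and the Golgi protein gene Golm1 rose by 2.96 ± 0.39. The mucosal peptide gene Tff3 was at 3.41, 2.40, 10.9 and 4.22 CPM and 97.5, 5.46, 8.98 and 787 CPM (3.10 ± 1.14, adjusted p = 0.12), and Spp1, osteopontin, at 73.6, 742, 24.0 and 4.59 CPM in tumors against 19.5 to 35.1 CPM (1.14 ± 1.09, adjusted p = 0.53). Each of these was highest in a single tumor, Tff3 in dHEP-550 and Spp1 in dHEP-520.

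No interleukin-17 receptor or adaptor gene passed the test, and targets moved in both directions. Limma called 0 of 6 tested genes of the receptor and adaptor list (1 at an unadjusted p under 0.05), with a median of 0.26. Among 12 tested targets 2 rose and 2 fell, 16.7% each way, against 7.91% higher and 4.87% lower among all tested genes. An unadjusted limma p under 0.05 was reached by 8 of the 12, beside 3804 of all 12534 genes. The median was 0.19, and 0, 1, 2 and 2 were higher and 0, 2, 0 and 2 lower without each animal. Lcn2, the siderophore-binding protein lipocalin-2, was at 26.1, 25.0, 47.8 and 19.97 CPM in non-tumor liver and 329.6, 598, 196 and 53.3 CPM in tumors (2.88 ± 0.49, adjusted p = 0.018). All tumors lay above all non-tumor libraries, and dHEP-550 only just. The neutrophil chemokine gene Cxcl1 rose from 4.76 to 12.9 CPM to 7.71 to 44.6 CPM (1.23 ± 0.23), while the acute phase apolipoproteins Saa1 and Saa2, whose reads are hard to tell apart, fell by 1.93 ± 0.37 and 1.78 ± 0.35.

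The wider acute phase list held 3 genes that rose and 7 that fell of 19, with a median of −0.80. Without each animal 0, 2, 2 and 3 were higher and 0, 8, 5 and 8 lower. Orm3, an orosomucoid, fell by 2.74 ± 0.31, the lipopolysaccharide-binding protein gene Lbp by 1.23 ± 0.13 and the iron hormone gene Hamp, hepcidin, by 1.71 ± 0.20. The interleukin-1 receptor antagonist gene Il1rn rose by 2.73 ± 0.29 and the pentraxin Apcs by 0.85. Haptoglobin (Hp) stood at −0.01 ± 0.33, and the feedback inhibitor of cytokine signalling, Socs3, at −0.01 ± 0.35.

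Major urinary proteins fell furthest. These pheromone carriers are secreted by the liver of adult mice under pulsatile growth hormone, and their near-identical copies share reads, so the family is best read as a sum. Of 21 Mup genes 20 fell, all but Mup20 (−0.97 ± 0.91). Their summed level was 56481, 96040, 137278 and 147186 CPM in non-tumor liver and 4471, 23199, 28485 and 1503 CPM in tumors, so 7.92%, 24.2%, 20.7% and 1.02% were left. No tumor reached the lowest non-tumor sum. In the same libraries the summed level of 16 plasma proteins and apolipoproteins, Alb among them, was 113558 to 149523 CPM in non-tumor liver and higher in tumors, at 204980 to 323131 CPM. CPM values share a fixed total, and the median difference over all tested genes was −0.13, 0.25, 0.094 and 0.12 in the 4 animals. How much of the other differences goes with either family was not tested, and the median-of-ratios counts are given above.

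Other growth hormone and sex-biased genes fell with them. Of 18 tested members 11 fell and 1 rose, with a median of −1.80 and animal medians of −2.30, −1.43, −0.83 and −2.18, and 0, 7, 10 and 11 were lower without each animal. The male-type steroid dehydrogenase gene Hsd3b5 fell from 26.2, 91.6, 115 and 218 CPM to 0.367, 6.22, 4.71 and 0.439 CPM (−4.90 ± 0.55, adjusted p = 0.0075), with tumors dHEP-518 and dHEP-550 under 1 CPM. Elovl3, Slco1a1, Cyp4a12a and Cyp7b1, all male-biased, fell by 4.0, 3.84, 3.67 and 3.41. The member that rose was Cyp2b9, a female-biased P450, at 3.10 ± 0.42. Ghr, the growth hormone receptor gene, fell from 615, 621, 471 and 516 CPM to 146, 243, 285 and 322 CPM (−1.20 ± 0.26), its target Igf1 by 1.79 ± 0.39 and the IGF carrier subunit Igfals by 2.19 ± 0.38, with no overlap in Ghr or Igf1. The factor downstream of the receptor, Stat5b, stood at −0.39 ± 0.15.

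Drug-metabolizing cytochromes that fell included Cyp2e1 of the central zone and Cyp2f2 of the portal zone, both given below. In the P450 list 12 of 23 members fell and 2 rose, Cyp2a4 and Cyp2b9, with a median of −1.13 and 0, 9, 11 and 15 lower without each animal. Cyp2c54, a fatty acid epoxygenase, was at 239, 276, 236 and 188 CPM in non-tumor liver and 4.66, 20.2, 10.9 and 1.14 CPM in tumors (−4.97 ± 0.42, adjusted p = 0.0039). Its close relatives Cyp2c50, Cyp2c37 and Cyp2c29 fell by 4.51, 4.04 and 3.49, and reads of this family can be split between copies. Nr1i3, the receptor CAR that switches on drug-metabolizing genes, fell from 465, 649, 272 and 346 CPM to 73.0, 154, 46.9 and 41.8 CPM (−2.57 ± 0.18, adjusted p = 0.0032), and its target Cyp2b10 by 2.94 ± 0.42. The related receptor Nr1i2 stood at −0.42 ± 0.17 and its target Cyp3a11 at −1.13 ± 0.29, neither past the test.

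Genes switched on by Wnt signalling around the central vein fell in part. Of 15 tested members 7 fell and none rose (median −1.18, animal medians −1.95, −0.55, −1.20 and −0.40), with 0, 3, 3 and 9 lower without each animal. Cyp2e1, which oxidizes ethanol and activates diethylnitrosamine, was at 8239, 9517, 7463 and 8409 CPM in non-tumor liver and 551, 1926, 967 and 1117 CPM in tumors (−3.02 ± 0.34, adjusted p = 0.0075). Glul, glutamine synthetase, was at 1148, 1304, 1247 and 1356 CPM and 173, 603, 299 and 21.96 CPM (−2.94 ± 0.70, adjusted p = 0.042), lowest in dHEP-550. The glutamate transporter Slc1a2 fell by 3.59 ± 0.55 and Cyp1a2 by 2.96 ± 0.50. Among Wnt feedback genes, Nkd1 (−1.18) and Notum (−1.26) fell. Axin2 and Lgr5 stood at −1.05 ± 0.29 and −0.63 ± 0.26 and did not pass.

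Ethanol-handling enzymes fell in 5 of 9 tested members, with a median of −0.82 and 0, 2, 3 and 5 lower without each animal. Besides Cyp2e1 these were Adh4 (−1.77 ± 0.18), the acetaldehyde dehydrogenases Aldh1a1 (−1.49 ± 0.35) and Aldh2 (−0.82 ± 0.20), and catalase (−1.17 ± 0.27). Adh1, the main liver alcohol dehydrogenase, was at 1774, 1731, 1655 and 1982 CPM in non-tumor liver and 1806, 2259, 2542 and 1984 CPM in tumors, with overlapping values (0.26 ± 0.24, adjusted p = 0.52).

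Bile acid synthesis and uptake fell in 11 of 21 members and rose in none (median −1.05). The numbers lower without each animal were 0, 4, 9 and 14, so 4 members were called lower without dHEP-520. Cyp7a1, the rate-limiting enzyme of bile acid synthesis, was at 480.4, 613, 572 and 293 CPM and 48.9, 109.8, 118 and 298 CPM (−2.0 ± 0.49, adjusted p = 0.044), with dHEP-550 inside the non-tumor range. Cyp8b1, Cyp27a1 and Cyp7b1, the other main hydroxylases, fell by 2.43, 1.86 and 3.41. Uptake carriers fell too, Slco1b2 by 2.25 ± 0.32 and Slc10a1, the sodium-dependent carrier, by 1.70 ± 0.33, and the bile acid receptor Nr1h4 by 0.80 ± 0.16. Export pumps of the canalicular membrane, Abcb11 (−0.72 ± 0.21) and Abcc2 (0.12 ± 0.18), did not pass.

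Of 21 genes of fat oxidation and ketogenesis 8 fell and 1 rose (median −0.65), with 0, 3, 4 and 7 lower without each animal. Cyp4a10 and Cyp4a14, fatty acid omega-hydroxylases driven by PPAR-alpha, fell by 3.25 ± 0.24 and 3.18 ± 0.44, and Acaa1b and Acot1 by 1.78 and 1.83. The hormone gene Fgf21 rose by 2.08 ± 0.53 (adjusted p = 0.04999). Lipid droplet genes moved both ways, with 2 of 12 higher and 5 lower, and 0, 0, 0 and 3 higher and 0, 4, 5 and 5 lower without each animal. The droplet coat genes Plin2 and Plin3 rose by 1.15 and 0.77, whereas Cidea, Fitm1 and Plin4 fell by 2.25, 2.46 and 1.89. Fatty acid synthesis held 3 higher (0, 1, 1 and 3 without each animal) and none lower of 12, Pnpla3 (2.6 ± 0.40), Gpam (0.97 ± 0.18) and Acaca (0.94 ± 0.21), with Fasn at 1.27 ± 0.41 (adjusted p = 0.091) and Srebf1 at −0.42 ± 0.24.

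**Figure D3:**
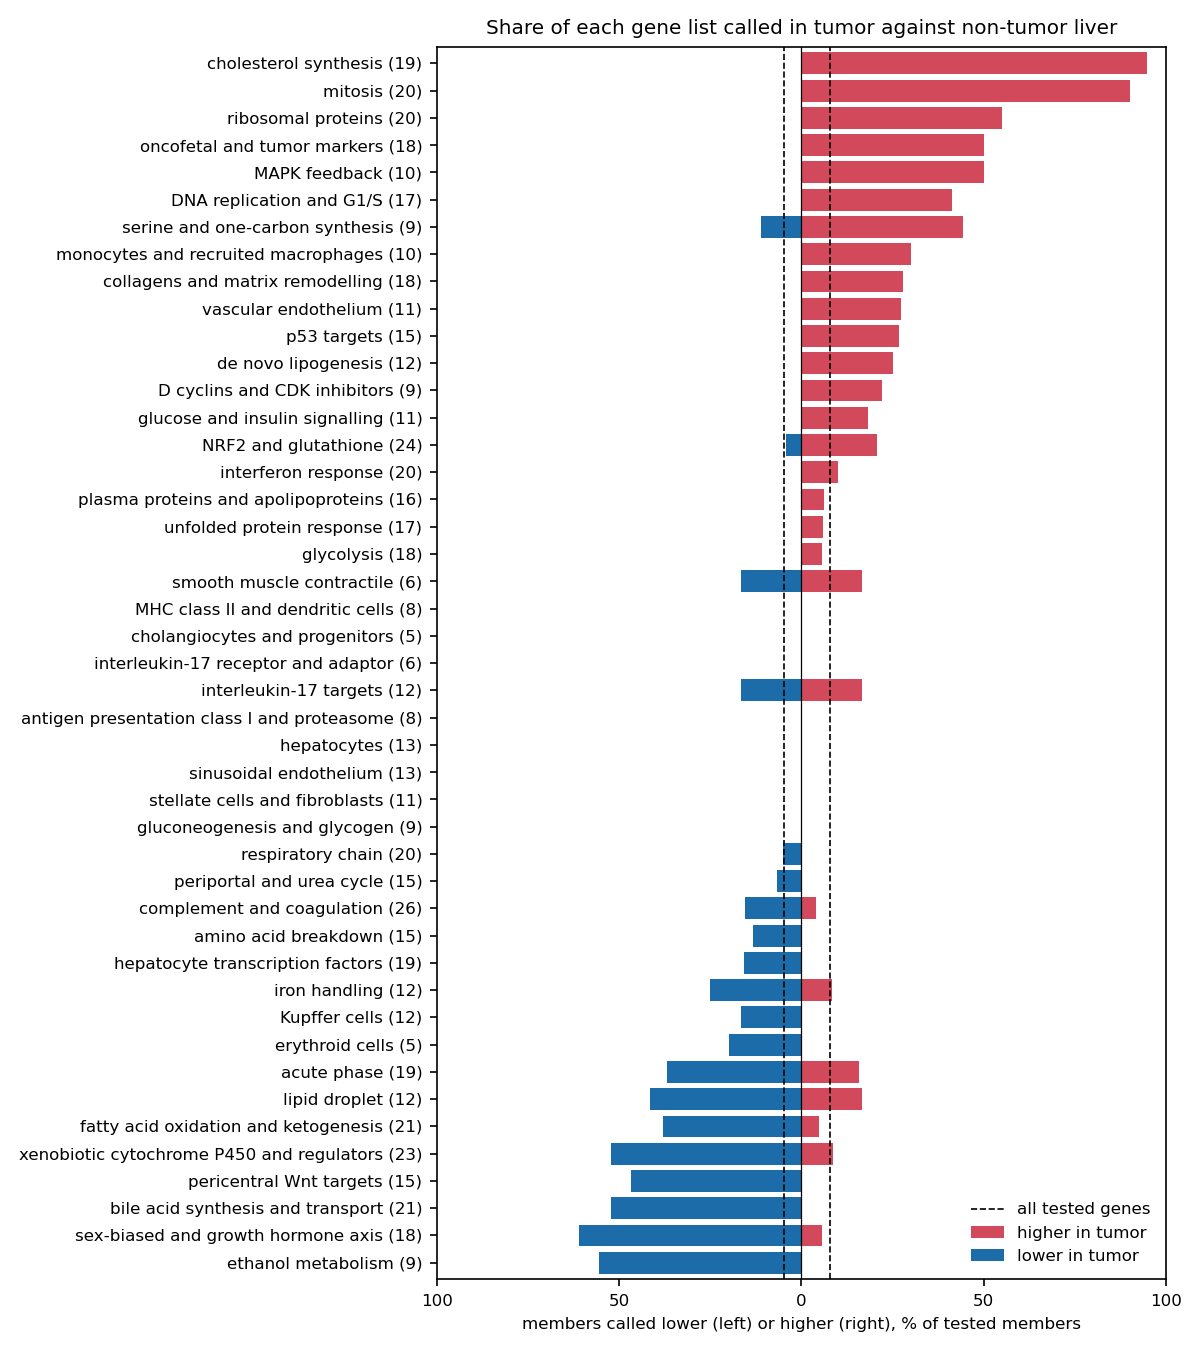
Share of the tested members of each gene list that rose or fell in tumors, in percent, with dashed lines at the shares over all tested genes (7.91% higher and 4.87% lower). Among lists with at least 5 tested members cholesterol synthesis and mitosis have the highest shares of rises, with 18 of 19 and 18 of 20 members.

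Portal-zone metabolism separated the tumor of dHEP-550 from the rest. Of 15 periportal and urea cycle genes 1 fell, Cyp2f2 (−3.60 ± 0.72), a share of 6.67% beside 4.87% over all tested genes. Without each animal 0, 0, 1 and 5 were lower, and the animal medians were −1.09, −1.46, −0.08 and 1.42. In dHEP-550 13 of the 15 were higher in tumor, against 3, 3 and 5 in the other animals. Cps1, the first urea cycle enzyme, was at 5092, 4396, 5618 and 4292 CPM in non-tumor liver and 2287, 1673, 5515 and 13454 CPM in tumors (−0.23 ± 0.55, adjusted p = 0.82). The tumors of dHEP-518 and dHEP-520 lay below the non-tumor range, that of dHEP-549 inside it and that of dHEP-550 above it. Ass1, argininosuccinate synthase, showed the same order, 2386, 1526, 1540.1 and 913 CPM against 708, 409, 1349 and 4739.8 CPM (−0.37 ± 0.69).

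Enzymes of amino acid breakdown behaved alike. With all 4 animals 2 of 15 fell, Cdo1 (−1.08 ± 0.17) and Ido2 (−1.34 ± 0.20), with a median of −0.45. Without each animal 0, 0, 2 and 11 of the 15 fell, and the animal medians were −1.39, −1.40, −0.59 and 0.99. In dHEP-550 11 of the 15 were higher in tumor, and in each other animal none was. Got1, aspartate aminotransferase, was at 78.9, 29.6, 176 and 1463 CPM in tumors against 99.8 to 291 CPM in non-tumor liver, far above the other tumors in dHEP-550. In serine and one-carbon synthesis 4 of 9 members rose and 1 fell (median 1.47), with 0, 4, 4 and 4 higher and 0, 0, 0 and 2 lower without each animal. Psat1 rose from under 2 CPM to 38.8, 67.3, 9.38 and 14.7 CPM (3.77 ± 0.49), and Phgdh and Psph rose by 3.02 and 1.47, while the mitochondrial enzyme Shmt2 fell by 0.68 ± 0.16.

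**Figure D4:**
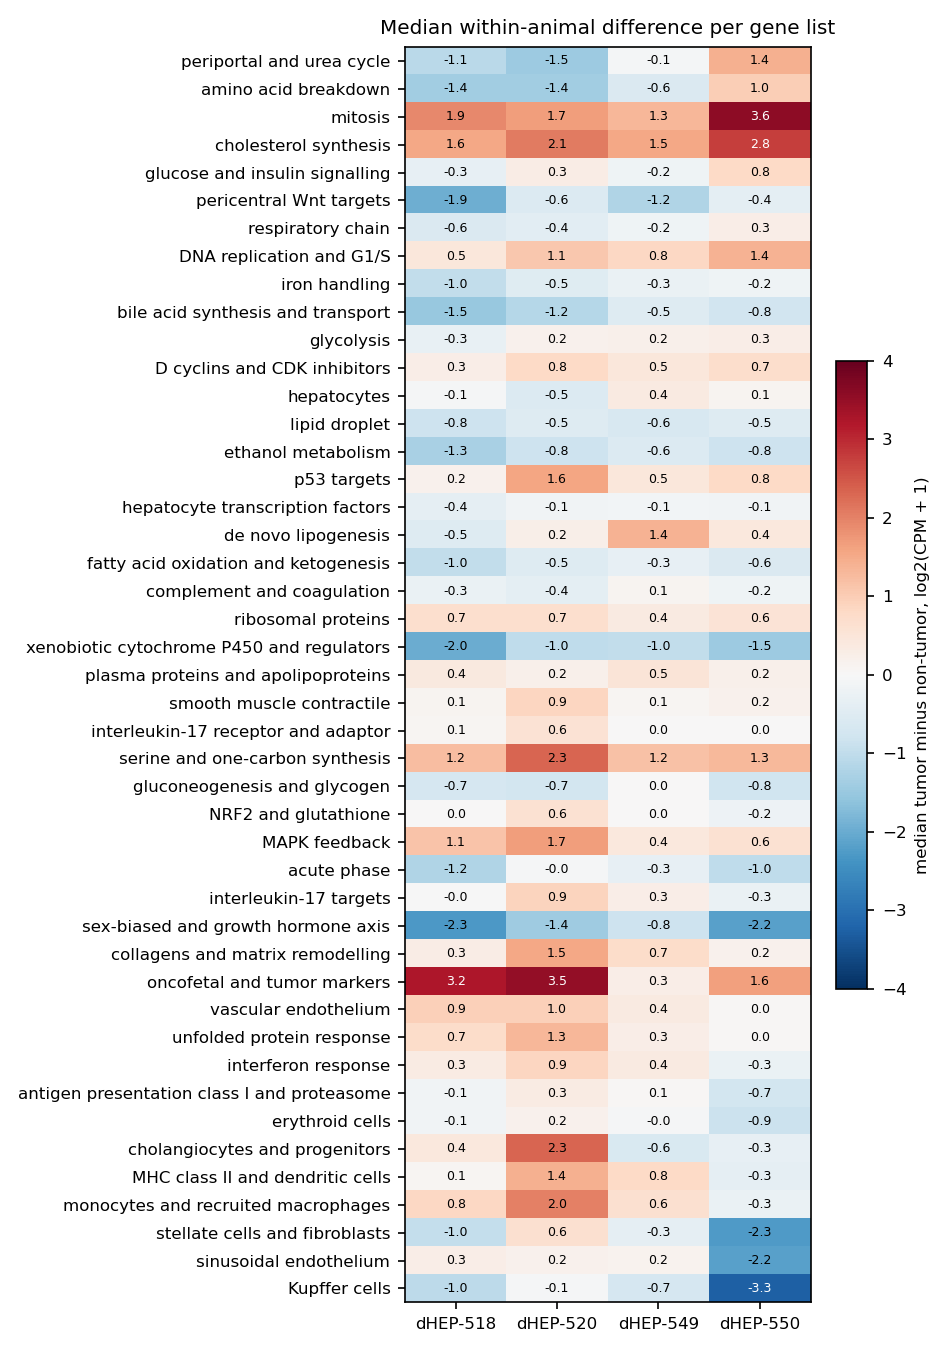
Median tumor minus non-tumor difference (log2) of each gene list within each of the 4 animals, with lists ordered by how dHEP-550 stands against the other 3. Periportal and amino acid breakdown genes are higher in the tumor of dHEP-550 (medians 1.42 and 0.99) and lower in dHEP-518 and dHEP-520, and Kupffer cell markers are lowest in dHEP-550 (−3.27).

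Of the 16 plasma proteins and apolipoproteins, 8 lay wholly above non-tumor liver in the tumors and 3 wholly below, against 14.2% and 7.74% of all tested genes. The limma test called 1 of them, Apoa4 of lipoprotein particles, which rose from 415, 281, 426 and 407 CPM to 5499, 3265, 2968 and 3509.8 CPM (3.29 ± 0.23, adjusted p = 0.0032), with no overlap. Of 26 complement and coagulation genes 4 fell, C8b (−1.47 ± 0.22), Mbl1 (−1.45 ± 0.15), C9 (−1.44 ± 0.32) and Masp1 (−0.81 ± 0.13), and 1 rose, Serpinf2 (0.87 ± 0.22), with 0, 2, 3 and 5 lower without each animal. Hepatocyte transcription factors held 3 falls of 19, Nr1i3, Nr1h4 and Cebpa (−0.86 ± 0.15), with 0, 1, 3 and 3 lower without each animal and Hnf4a at −0.25 ± 0.17. Neither glycolysis (1 of 18 higher, Gpi1 at 0.66) nor glucose production and glycogen (0 of 9, with 3 at an unadjusted p under 0.05) moved beyond the share over all genes. In the insulin and IGF list, Igfbp1, an IGF-binding protein, rose by 3.30 ± 0.58 and the receptor adaptor Grb10 by 1.26 ± 0.21.

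Stress responses were mixed. The NRF2 and glutathione list held 5 rises (0, 1, 4 and 5 without each animal) and 1 fall of 24, with Gstp2 (2.52 ± 0.48), Gsta1 (1.88 ± 0.27) and Gstm3 (1.71 ± 0.35) highest and the glutamate-cysteine ligase subunit Gclm lower (−0.76 ± 0.16). Glutathione transferase copies can exchange reads. In the unfolded protein response 1 of 17 rose, Ddit3 (1.15 ± 0.26), a share of 5.88% beside 7.91% over all tested genes. The median was 0.62, and 0, 0, 1 and 9 were higher without each animal. Of 12 iron genes 3 fell (0, 1, 2 and 4 without each animal), Hamp, the iron exporter Slc40a1 (−1.37 ± 0.35) and Tfr2 (−0.73 ± 0.15), and the transferrin receptor Tfrc rose (0.87 ± 0.21).

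Markers of other liver cells changed in some lists and not in others. They are given as whole lists, since in bulk tissue fewer cells of a type and less RNA per cell cannot be told apart. All 12 Kupffer cell markers had lower means in tumors, 2 of them past the test, Cd163 (−2.78 ± 0.61) and Slc40a1, with a median of −1.48. The animals differed, with medians of −1.05, −0.06, −0.66 and −3.27, and in dHEP-520 6 of the 12 were higher in tumor. The summed level of the 12 was 664, 706, 867 and 954 CPM in non-tumor liver and 325, 690.3, 602 and 139 CPM in tumors. Clec4f, the lectin that defines these resident macrophages, was at 98.9, 122, 148 and 154 CPM and 42.0, 76.7, 60.5 and 4.12 CPM (−2.02 ± 0.66, adjusted p = 0.091), lower in every tumor and lowest in dHEP-550. Without each animal 0, 0, 1 and 6 of the 12 fell. Of 10 markers of monocytes and recruited macrophages 3 rose (0, 2, 2 and 5 without each animal), Gpnmb (3.13 ± 0.46), Cd9 (2.0 ± 0.30) and Itgax (1.54 ± 0.32). The animal medians were 0.82, 2.01, 0.64 and −0.27. The summed level of the list was 118, 137, 154 and 202 CPM in non-tumor liver and 223, 1110.4, 220 and 149 CPM in tumors. It was lower in the tumor of dHEP-550, and the high sum of dHEP-520 includes Spp1, which was highest in that tumor.

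Vascular markers were tested as 2 lists. Limma called 0 of 13 sinusoidal endothelial markers (2 at an unadjusted p under 0.05, sums of 390.0 to 575 CPM in non-tumor liver and 122 to 718 CPM in tumors, median −0.44, animal medians 0.27, 0.17, 0.15 and −2.16). Without each animal 0, 0, 0 and 3 of these were higher and none lower. Of 11 markers of other endothelium 3 rose (0, 1, 2 and 5 without each animal), Cd34 from 1.5, 2.04, 1.06 and 1.54 CPM to 12.2, 13.3, 11.1 and 18.95 CPM (2.54 ± 0.19, adjusted p = 0.0032), Emcn (1.39 ± 0.29) and Pecam1 (0.76 ± 0.14). No Cd34 value overlapped between the tissues, and the summed level was 214 to 273 CPM in non-tumor liver and 259 to 373 CPM in tumors. Collagen and matrix genes held 5 rises of 18 and no fall (median 0.87, 0, 3, 4 and 8 higher without each animal), among them the basement membrane chains Col4a1 (1.46 ± 0.16) and Col4a2 (1.06 ± 0.16), the fibrillar chain Col3a1 (1.35 ± 0.28) and Sparc (1.27 ± 0.15). Of 11 stellate cell and fibroblast markers limma called 0 (3 at an unadjusted p under 0.05), with a median of −0.50 and sums of 447 to 691 CPM and 117 to 1438 CPM. Leaving out each animal gave 0, 0, 0 and 1 of them lower and none higher. Acta2, smooth muscle actin, rose by 1.60 ± 0.27 while Tpm2 fell by 1.98 ± 0.24. The part of these cell types in the gene groups above was not tested.

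Lymphoid and blood cell markers were scarce. Of the 16 T and NK cell genes found only Cd4 passed the filter on low values (−0.06 ± 0.23), and of 7 B and plasma cell genes only Jchain, which rose by 2.04 ± 0.27. Neutrophil Ly6g was at 0 in all 8 libraries. Bile duct markers were tested in 5 of 11 members and limma called 0 (1 at an unadjusted p under 0.05), with Krt19 under 1 CPM in every library. Fat cell markers were tested in 4 of 8 members, and their summed level was 81.5 to 164.7 CPM in non-tumor liver and 131 to 237 CPM in tumors. The fatty acid binding protein gene Fabp4 and the lipoprotein lipase gene Lpl rose by 1.65 ± 0.21 and 1.27 ± 0.19, and Cidec stood at −0.65 ± 0.55. Cfd, the complement factor D gene, fell from 48.1, 81.3, 14.6 and 22.3 CPM to 0.248, 2.08, 0.608 and 0.0665 CPM (−4.44 ± 0.32, adjusted p = 0.0032). Of the markers not tested, Lep was at 0 in all 8 libraries and Adipoq and Plin1 were under 0.1 CPM in each.

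The same tumor effect was then measured in FF mice on alcohol and in Cre-deleted mice on chow, in a fit of 22 libraries from 11 animals with the animal as block. In that fit 2867 genes (21.6% of 13281) changed in the deleted mice on alcohol, 3445 (25.9%) in FF mice and 3882 (29.2%) in deleted mice on chow. Of the 1601 genes called in the deleted mice on alcohol, 1592 (99.4%) had the same direction in FF mice and 1587 (99.1%) in deleted mice on chow. Over all 12534 genes, called or not, the differences already correlated at r = 0.89 with those of FF mice and at r = 0.85 with those on chow. In FF mice 1372 were also called in that direction, which is 85.7% of the 1601 and 39.8% of the FF calls. The corresponding number on chow was 1341, 83.8% of the 1601 and 34.5% of the chow calls. The median difference of the 991 higher genes was 1.10 here, 0.95 in FF mice and 1.24 on chow, and that of the 610 lower genes was −1.20, −1.28 and −1.33. The 1601 genes were chosen for their difference in the first group, so these medians are a description.

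**Figure D5:**
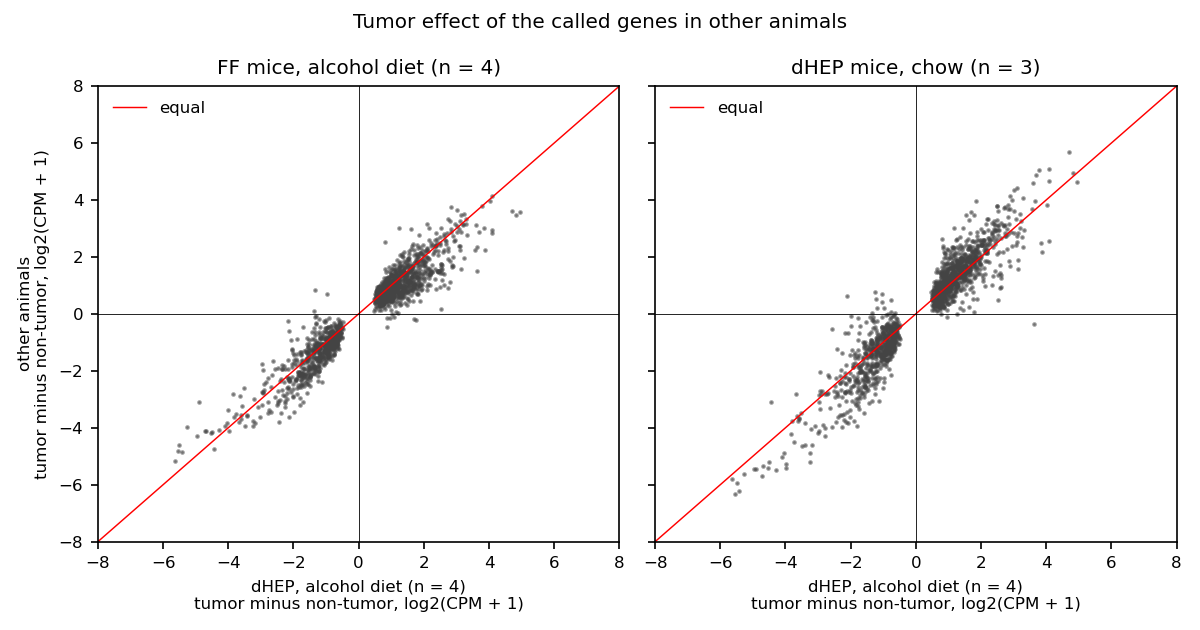
Tumor minus non-tumor difference (log2) of the 1601 genes called in deleted mice on alcohol, plotted against their difference in FF mice on alcohol and in deleted mice on chow. Most points lie in the quadrants of equal sign, 1592 and 1587 genes respectively.

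The difference of the tumor effect between genotypes or diets passed adjustment in no gene. For deleted minus FF mice on alcohol, limma called 0 of 13281 genes (0%), with 360 at an unadjusted p under 0.05 (2.71%) and a smallest adjusted p of 1.0 for Myh11. The difference between alcohol and chow in deleted mice gave 0 calls (0%) too, with 986 genes at an unadjusted p under 0.05 (7.42%) and a smallest adjusted p of 0.49 for Srgap3. Diet here goes with a different set of animals, and the 2 cannot be told apart.

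For some of the named genes the intervals of these differences are given, and they are wide. Sqle rose by 4.09 here and stood at 2.96 in FF mice and 2.54 on chow, with differences of 1.13 (95% interval −0.70 to 2.96) and 1.54 (95% interval −0.43 to 3.52). The cholesterol list had medians of 1.38 in FF mice and 1.35 on chow beside 2.12 here, and Fdps differed from FF by 1.22 (95% interval 0.23 to 2.21). For Ccnd1 the difference was 0.57 (95% interval −0.09 to 1.24) from FF and 0.39 (95% interval −0.33 to 1.11) from chow, and for Lcn2 it was 0.16 (95% interval −1.75 to 2.07) and −1.26 (95% interval −3.32 to 0.80). Hpd, an enzyme of tyrosine breakdown, stood at −3.40 in FF mice and −4.0 on chow beside −1.65 ± 0.66 here, where it was not called in the paired fit of 8 libraries, and differed by 1.75 (95% interval 0.12 to 3.38) from FF. Gpc3 stood at 4.27 in FF mice and 5.52 on chow, with a difference from FF of −1.46 (95% interval −5.08 to 2.16). None of these differences passed adjustment over all genes. The intervals are not adjusted, also those of Fdps and Hpd that leave out 0. In the comparison with FF mice 2.71% of all tested genes had an unadjusted limma p under 0.05, where 5% are expected without any difference.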

How the data were processed

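Poly-A or total RNA from liver was sequenced (the labels' protocols name both), and the authors deposited 1 table of CPM values for 22187 genes in 28 libraries, each column summing to 1000000. The submitters' processing notes name STAR 2.5.1a, RSEM 1.3.0 and GRCm38. The order of steps and the gene annotation are not given in the sources used here, and 21653 gene IDs matched a symbol. In the 8 libraries compared, 85.7% to 87.1% of values up to 20 reads were whole multiples of the worth of 1 read within 0.1, which gave the estimated depths, and no count test was run. Genes with at least 1 CPM in at least 3 fitted libraries were tested as log2(CPM + 1) with limma 3.58.1 (R 4.3.3, mean-variance trend) and Benjamini-Hochberg adjustment over all of them, with the animal as block and 3 residual degrees of freedom. An exact paired permutation test over 4 animals cannot go below p = 0.125, so none was used. The fit of 22 libraries gave the differences between groups of animals. The fits were also run on simulated data with the same added noise for every gene, a simpler setting than these data. Of 100 genes changed by 1 on the log2 scale, the main fit recovered 96%. The fit of the difference from FF mice recovered 74%. False calls were 7.5% and 1.7% of all calls in these fits.

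The genes named are Il17ra, Lcn2, Afp and Gpc3, the 15 largest rises and the 15 largest falls among called genes with a mean of at least 5 CPM in the higher tissue and 4 of 4 animals in 1 direction (unnamed transcripts left out), and the 4 members of smallest p of each of 49 gene lists. The members and lists were chosen with earlier results of these data known, and other genes named were chosen after their values were seen. Some genes that these rules name are not reported here, and counts over a list include them. Gene coordinates are GENCODE vM21, promoter sequences RefSeq. Alternatives were another pseudocount, filters, scaling, no block, array weights, other sets of libraries, each animal left out and, chosen after seeing the data, no mean-variance trend. Deviations of the 2 libraries of an animal from their group means correlated at r = 0.16, 0.08, 0.27 and −0.11.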

Additional observations from a re-analysis of the deposited data

Results flagged for a closer look

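In 10 of 219 genes checked, the tumor minus non-tumor difference of 1 animal lay far from those of the other 3, by the gap over range of 4 values by Dixon's test. Chance flags about 1 in 20 groups of values, and 10 of 219 is about that share. In dHEP-550 the steroid 17-hydroxylase gene Cyp17a1 stood at 7.67 on the log2 scale and the proliferation marker Mki67 at 4.55, both above the other animals. The same animal lay below the others for the resident macrophage genes Cd163 (−5.44), Clec4f (−4.92) and Folr2 (−3.67) and for the sinusoidal growth factor Bmp2 (−2.16). In dHEP-549 the one-carbon enzyme Mthfd1l stood at 1.32, lower than elsewhere, the glycogen phosphorylase Pygl at 0.0830, higher than elsewhere, and Prom1 at −0.606, lower than elsewhere. In dHEP-518 the glutathione transferase gene Gsta1 stood at 0.810, lower than in the other animals.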

How the results depend on the processing

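With 4 animals and 3 residual degrees of freedom the calls depend on each animal. Leaving out 1 animal gave between 0 and 1988 changed genes, 0 to 1161 higher and 0 to 827 lower, with 0 called without dHEP-518 by limma (3137 at an unadjusted p under 0.05). The cause was not tested. No filter on low values gave 847 genes (525 higher and 322 lower), over more genes tested. Median-of-ratios scaling gave 963 lower genes. Without the block for the animal, 1764 genes were called, 1080 higher and 684 lower, so the pairing of libraries moved the count by less than 1.5 times, and 132 of the 142 called genes named here kept their call. With no filter 100 of the 142 kept it, 0 without dHEP-518, 82 without dHEP-520, 113 without dHEP-549 and 140 without dHEP-550. Fits with more libraries gave more calls, 2754 (1736 and 1018) for all 28 libraries with no block and 2867 (1804 and 1063) for the 22 libraries of 11 animals. A pseudocount of 0.5, a mean filter of 5 CPM, sample weights and no mean-variance trend gave 1623, 1332, 2049 and 1412 genes, all within 1.5 times of 1601. The genotype difference had 0 calls in every alternative run, and the diet difference 0 to 1, with 1 call when 1 chow animal was left out. None of the 142 called genes named here reversed under any alternative run.

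Among named genes that were not called, some changed sign. With sample weights Psmb9 stood at 0.0328, Sox9 at −0.105 and Cd4 at 0.0364. Over the fits that left out 1 animal each, the difference ranged from −0.391 to 0.134 for Psmb9, from −0.257 to 0.212 for Psmb8, from −0.126 to 0.0430 for Cd4, from −0.858 to 0.156 for Cps1 and from −1.28 to 0.145 for Ass1. It ranged from −0.201 to 2.41 for Spp1, from −0.0408 to 0.539 for S100a9 and from −0.188 to 0.509 for Csf3r. For the globin genes it ranged from −0.342 to 0.00920 for Hba-a1, from −0.372 to 0.0577 for Hbb-bs and from −0.236 to 0.00670 for Hbb-bt. The positive ends of Cps1 and Ass1 came without dHEP-520, and the negative ends without dHEP-550. Genes under 1 CPM are limited by depth, at 12080000 to 15040000 estimated reads per library.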

Other observations

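Ribosomal protein genes rose in 11 of 20 members with none lower (median 0.55), and 0, 0, 2 and 7 were higher without each animal, by rising number. They were led by Rpl3 (0.88 ± 0.14) and Rpl10 (0.80 ± 0.16). Reads of these genes are shared with processed pseudogenes, and 2 of the 20 rose under median-of-ratios scaling. Of 20 respiratory chain genes 1 fell, Ndufb3 (−0.52 ± 0.13), a share of 5% beside 4.87% over all tested genes. The median was −0.26, with animal medians of −0.59, −0.42, −0.18 and 0.25. Without each animal 0, 0, 0 and 5 were lower, and 17 of the 20 were higher in the tumor of dHEP-550. Interferon-stimulated genes held 2 rises of 20, the antiviral enzyme Rsad2 (1.10 ± 0.23) and the chemokine Cxcl10 (0.86 ± 0.22), and 0, 0, 0 and 7 without each animal. This share of 10% is near the 7.91% over all tested genes. In the class I antigen presentation list limma called 0 of 8 members (1 at an unadjusted p under 0.05). Of 8 tested MHC class II and dendritic cell genes it called 0 (2 at an unadjusted p under 0.05), and the heme synthesis gene of red cell precursors Alas2 fell by 1.65 ± 0.18.

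Some genes that did not pass the filter on low values were high in 1 or a pair of tumors. The fetal growth factor gene Igf2 was at 0.0828, 0.431, 0.203 and 77.2 CPM in tumors and 0.327 to 0.922 CPM in non-tumor liver, high in dHEP-550 alone. Cdkn2b, a CDK4 and CDK6 inhibitor, was at 15.6, 31.1, 0.743 and 0.732 CPM in tumors and 0.0817 to 0.634 CPM in non-tumor liver, high in dHEP-518 and dHEP-520. Neither was tested.

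Tumor dHEP-550 also held the highest level of the steroid 17-hydroxylase Cyp17a1, 63.9, 39.5, 58.2 and 1157 CPM in the 4 tumors against 4.68 to 14.8 CPM in non-tumor liver (3.62 ± 0.91, adjusted p = 0.047), and of the protease inhibitor Slpi, 14.6, 13.5, 6.96 and 213 CPM against 0.509 to 1.61 CPM (3.57 ± 0.67). Both genes were above non-tumor liver in all 4 tumors.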
